A study of Mus musculus with 2 samples.

Results

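Metallothioneins and the transporters that move zinc across membranes were described in the liver of fasted mice and of fasted mice upon feeding. The genes were 7 symbols fixed by name, the metallothioneins Mt1 and Mt2, the exporters Slc30a1 and Slc30a10 and the importers Slc39a4, Slc39a8 and Slc39a14. A probe counted for a gene when it was not a control spot and its transcript identifier belonged to that symbol. All 7 genes were found, each with 1 probe at 1 spot per array, among 20652 gene names on the array. The array holds an Agilent whole mouse genome probe set, and 2 arrays were read, 1 for each group. The fasting array carried liver RNA of male mice deprived of food overnight for 14 to 16 h, pooled from 3 mice. The feeding array carried liver RNA pooled from 3 male mice, which one label describes as fed after such a fast and another as having free access to food. Both groups were kept in pathogen-free housing with equal light and dark phases, and no allele or drug is named for either. The labels give neither strain nor age, and the methods name male C57BL/6 J mice, young adults, for the study in general. With 1 array of pooled RNA per group, the spread between mice is unknown and no test of a difference between the groups is possible.

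Metallothioneins are small proteins rich in cysteine that bind zinc and copper in the cytosol. In liver their transcripts are known to respond to metals through the transcription factor MTF1, which binds metal response elements, and also to glucocorticoids, inflammation and food deprivation. Transporters of the Slc30a (ZnT) family carry zinc out of the cytosol, either from the cell or into vesicles, and those of the Slc39a (ZIP) family carry it in. Several of them also carry manganese, iron or cadmium, and Slc30a10 is known chiefly as an exporter of manganese.

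The upstream sequences of Mt1, Mt2, Slc30a1 and Slc30a10 are shown because they belong to the metallothioneins and exporters whose signals are compared next. Each is the 250 bases before the RefSeq gene start in GRCm38.p6, read 5′ to 3′ on the + strand, and capitals mark matches on either strand to the core of the metal response element, TGCACNC or TGCGCNC. The Mt1 stretch lies at chr8:94178839-94179088, that of Mt2 at chr8:94172368-94172617, that of Slc30a1 at chr1:191906531-191906780 and that of Slc30a10 at chr1:185454598-185454847.
Mt1: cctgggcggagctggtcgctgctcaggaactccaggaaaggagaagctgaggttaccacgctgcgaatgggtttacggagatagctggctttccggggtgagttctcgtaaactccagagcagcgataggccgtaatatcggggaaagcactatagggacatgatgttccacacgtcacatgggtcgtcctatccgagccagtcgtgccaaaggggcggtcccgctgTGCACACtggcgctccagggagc
Mt2: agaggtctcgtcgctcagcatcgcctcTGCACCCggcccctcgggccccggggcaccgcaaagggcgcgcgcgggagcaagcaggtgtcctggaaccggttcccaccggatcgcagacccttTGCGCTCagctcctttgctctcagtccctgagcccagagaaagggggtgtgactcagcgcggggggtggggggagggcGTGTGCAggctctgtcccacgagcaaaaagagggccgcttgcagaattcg
Slc30a1: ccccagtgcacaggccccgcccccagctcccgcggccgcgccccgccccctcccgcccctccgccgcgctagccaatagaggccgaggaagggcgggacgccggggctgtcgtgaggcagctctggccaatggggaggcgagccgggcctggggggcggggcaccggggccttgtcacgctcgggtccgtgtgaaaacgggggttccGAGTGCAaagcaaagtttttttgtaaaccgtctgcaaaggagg
Slc30a10: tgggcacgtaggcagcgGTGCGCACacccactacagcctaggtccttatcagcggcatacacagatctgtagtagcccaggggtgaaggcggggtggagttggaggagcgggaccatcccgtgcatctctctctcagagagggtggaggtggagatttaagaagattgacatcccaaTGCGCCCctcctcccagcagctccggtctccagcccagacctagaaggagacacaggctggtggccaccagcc

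In windows that also took in the 50 bases after the start, the core matched 3 times for Mt1, 4 times for Mt2, 2 times for Slc30a1 and 3 times for Slc30a10. In the window of Slc30a10, 2 of these matches overlap, on opposite strands, at 233 and 232 bases before the start. Of 32851 promoter windows of this length in the RefSeq table, 25.7% held at least 1 match, 7.11% at least 2, 1.97% at least 3 and 0.517% at least 4. The windows of all 4 genes, exporters and metallothioneins alike, therefore held the core more often than most windows. This is a description of letters and not of binding. Slc39a8 had 2 windows, with 0 matches and 1 match, and Slc39a4 and Slc39a14 had no entry. A palindrome of the kind bound by the glucocorticoid receptor, the glucocorticoid response element, searched on both strands, matched once in the Mt1 window, 94 bases before the start, and in no other window of the members. It was found in 0.475% of all windows. The TATA box, searched as TATAAA, was in no window of the members and in 13.6% of all windows. The windows follow the annotated start, and whether transcription in liver begins there was not tested. An element more than 50 bases past that start would not be found, so the absence of a match does not mean that a gene lacks the element.

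**Figure D1:**
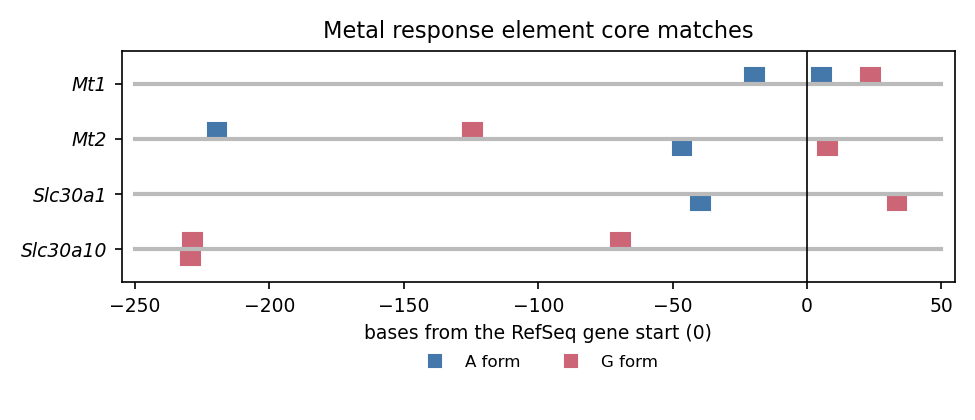
Matches to the core of the metal response element around the gene starts of Mt1, Mt2, Slc30a1 and Slc30a10; the x axis gives bases from the RefSeq start, blue marks TGCACNC and red TGCGCNC, and boxes above the line are on the strand of the gene and boxes below it on the other strand. Mt2 has 4 matches spread over the window, while the 3 of Mt1 lie near the RefSeq start.

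Of the 7 genes, 2 differed at least 2-fold between the arrays. Mt2 was lower upon feeding, Slc30a10 was higher upon feeding, and the other 5, Mt1 among them, stayed within 2-fold. Over all genes, 16346 were measured, meaning that the brightest probe rose well above background on either array, and 3.29% of them were at least 2-fold higher and 4.62% at least 2-fold lower upon feeding. With 7 genes and 1 in each direction, no share can be set against these. The median of the 7 log2 differences, feeding minus fasting, was -0.13, where the median over the 14515 genes well above background on both arrays was near 0 and their median absolute difference was 0.28.

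**Figure D2:**
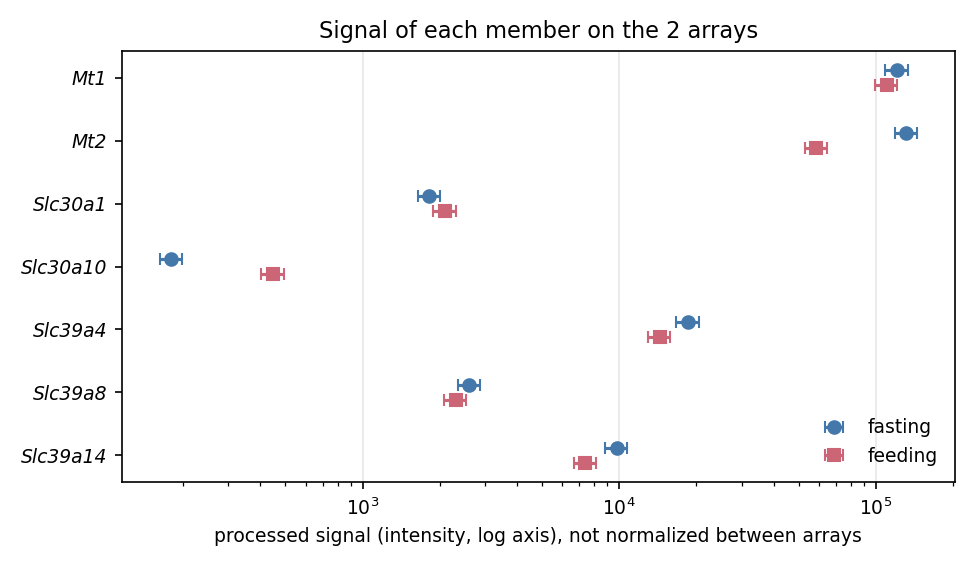
Processed signal of the 7 genes on the fasting array (blue circles) and the feeding array (red squares), on a log axis and before normalization between arrays; bars are the error that the scanner software gives for the spot. The symbols of Mt2 and Slc30a10 lie clearly apart, those of Mt1, Slc30a1 and Slc39a8 have overlapping bars, and levels of different genes cannot be compared because each probe binds differently.

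Mt2, which encodes metallothionein 2, had a processed signal of 131384 ± 13138 upon fasting and of 58705 ± 5870 upon feeding, where the error is that of the scanner software for the single spot. After quantile normalization the 2 signals were 128505 and 60414. The log2 difference was -1.09 ± 0.20 with the software's error, or 2.13-fold lower upon feeding. Replicate spots of probes in the brightest of 3 groups by brightness gave an SD of 0.09 for such a difference. The decrease of Mt2 was thus larger than both measures of error on the array, while error between mice is unknown. The software's error lay between 10.0% and 10.2% of the signal for all 7 genes on both arrays. It comes from the software's error model and not from repeated spots of these probes. Of all 16346 genes, 4.03% fell further. The call rests on the scaling of the arrays, since with each array scaled by its median the difference was -0.93, short of 2-fold. That scaling moved the median of all genes to 0.12, and relative to it Mt2 lay at -1.04.

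Mt1, which encodes metallothionein 1 and lies next to Mt2 on chromosome 8, had a processed signal of 121023 ± 12102 upon fasting and of 110407 ± 11041 upon feeding. The normalized log2 difference was -0.07 ± 0.20, so the difference lay within the software's error, and it was 0.10 with scaling by the median. The signals of Mt1 and Mt2 therefore differed unequally between the arrays. The difference of Mt2 minus that of Mt1 was -1.02 on the log2 scale, or 2.03-fold, a comparison from which any constant factor between the arrays drops out. With the normexp background correction it was 2.15-fold. Neither spot was saturated in the scan, whose saturation value was 778212, and the brightest spot of any transcript had a signal of 185908 upon fasting. This covers the scan only, and whether probes this bright still follow the amount of their transcript was not tested. The probe sequences were not used here, so whether either probe also binds the other transcript was not tested.

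Slc30a10 is a member of the zinc exporter family that is known to carry manganese out of liver cells. Its probe gave a processed signal of 180.1 ± 18.3 upon fasting and of 448.3 ± 44.8 upon feeding. The normalized log2 difference was 1.51 ± 0.21, or 2.84-fold higher upon feeding. Replicate spots of probes in the middle of the 3 groups by brightness gave an SD of 0.14. Of the 16346 genes, 180 had a larger value. The local background of its spot was 36.3 upon fasting and 24.2 upon feeding. Under the normexp background correction the difference was 1.03, past 2-fold by less than the software's error of 0.21. Slc30a10 was past 2-fold under every scaling tried, but the size of its difference ran from 1.03 to 1.55 and depended on the background correction.

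Slc30a1, the zinc exporter of the plasma membrane whose gene is a known MTF1 target, had a signal of 1823 ± 182 upon fasting and of 2097 ± 210 upon feeding. Its log2 difference was 0.24 ± 0.20, within 2-fold and in the direction of Slc30a10. Of all genes, 27.4% had a larger value. The 2 exporters thus differed in size, with Slc30a10 past 2-fold and Slc30a1 far from it.

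The 3 importers were all within 2-fold. Slc39a14, which takes up zinc, manganese and iron not bound to transferrin and is known to be induced in inflammation, had a signal of 9789 ± 979 upon fasting and of 7384 ± 738 upon feeding, with a log2 difference of -0.38 ± 0.20. Slc39a4, the importer that takes up dietary zinc in the intestine, had a signal of 18538 ± 1854 upon fasting and of 14373 ± 1437 upon feeding, with a log2 difference of -0.36 ± 0.20. Its probe was well above background in the liver RNA of both groups. Slc39a8, an importer of zinc, manganese and cadmium, had a signal of 2611 ± 261 upon fasting and of 2308 ± 231 upon feeding, with a log2 difference of -0.13 ± 0.20. The differences of Slc39a14 and Slc39a4 were larger than the SD of 0.09 between replicate spots and close to 2 times the software's error. With scaling by the median they were -0.17 and -0.13, and that of Slc39a8 turned to 0.06, so small differences of this size depend on the scaling.

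**Figure D3:**
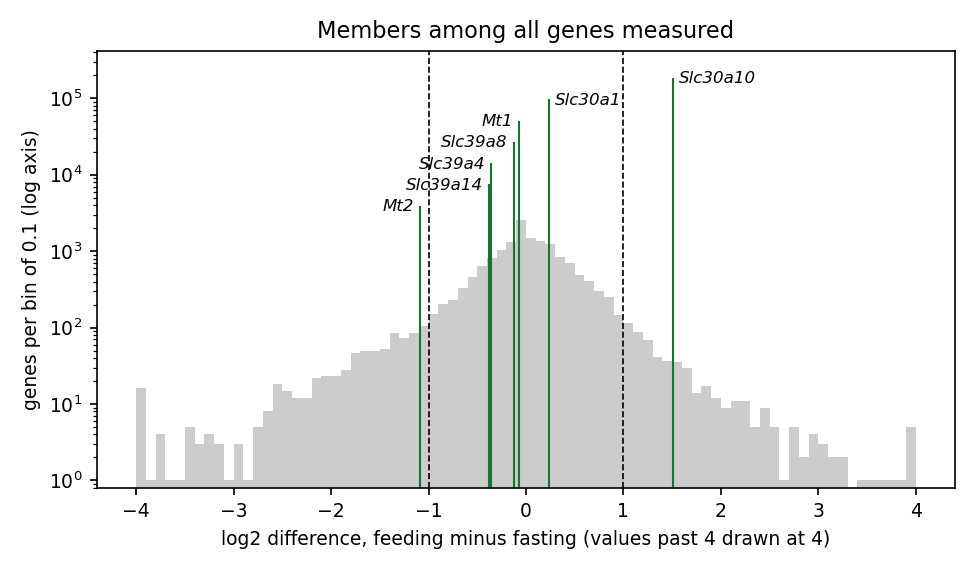
Distribution of the log2 difference, feeding minus fasting, over the 16346 genes measured (grey bars, log axis of counts), with each of the 7 genes as a green line, whose height carries no value, and 2-fold as dashed lines; values past 4 in size are drawn at 4. Mt2 at -1.09 and Slc30a10 at 1.51 lie in the tails, and the other 5 lie in the dense middle.

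The rest of the pathway was taken from a list of 22 genes, the remaining Slc30a and Slc39a genes with Mt3, Mt4 and Mtf1. All 22 had a named probe and 17 were measured, with 0 past 2-fold in either direction, where 7.91% of all genes were. Their median log2 difference was 0.30 and their range ran from -0.37 to 0.77. The other 5 genes, Slc30a3, Slc30a8, Slc39a5, Slc39a9 and Slc39a12, were not well above background on either array. Slc30a8 is known for loading zinc into insulin granules and Slc30a3 for loading it into synaptic vesicles.

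Mtf1, which encodes the transcription factor that senses zinc and activates metallothionein genes, had 3 probes. The brightest had a signal of 1429 ± 143 upon fasting and of 1739 ± 174 upon feeding, with a log2 difference of 0.34 ± 0.20. The second gave 0.40 ± 0.20, and the dimmest gave 0.99 ± 0.30 from a signal of 26.0 upon fasting. All 3 probes of Mtf1 were higher upon feeding, and none was past 2-fold. Mt3 and Mt4, metallothioneins known from brain and from stratified epithelia, were dim, and their log2 differences were 0.30 ± 0.21 and 0.29 ± 0.28.

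Of the Slc30a family, 8 of 10 genes were measured, with a median log2 difference of 0.44 by the brightest probe of each. Of the 8, 7 were above 0, where 7802 of all 16346 genes were above 0 and 7383 below. The rest of all genes were at 0. Genes well above background on only 1 array can be set to 0, and none of the 8 was such a gene. Slc30a5, which carries zinc into the early secretory pathway, had a signal of 2791 ± 279 upon fasting and of 4619 ± 462 upon feeding, with a log2 difference of 0.77 ± 0.20. Slc30a6, its partner, was at 0.46 ± 0.20, and Slc30a2, a vesicular transporter with a dim probe, was at 0.61 ± 0.36. Slc30a4, also a vesicular transporter, was at -0.31 ± 0.20. The probes of the other two disagreed in sign. Slc30a7, which also acts in the secretory pathway, was at 0.41 by its brightest probe, at 0.32 by the second and at -0.63 by the dimmest. Slc30a9 was at 0.18 by its brightest probe and at -0.39 by the dimmer one, which was well above background on both arrays.

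Of the Slc39a family, 11 of 14 genes were measured, with a median of -0.01, and 5 of the 11 were above 0. Apart from the 3 importers described before, Slc39a7, which releases zinc from the endoplasmic reticulum, was the highest at 0.58 ± 0.20, followed by Slc39a10 at 0.56 ± 0.21 and Slc39a13, an importer of the Golgi, at 0.52 ± 0.20. Slc39a2 at 0.12, Slc39a11 at 0.07 and Slc39a1 at -0.01 were within the software's error. Slc39a3 was at -0.29 ± 0.20 and Slc39a6, an importer of the plasma membrane, was the lowest at -0.37 ± 0.20.

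**Figure D4:**
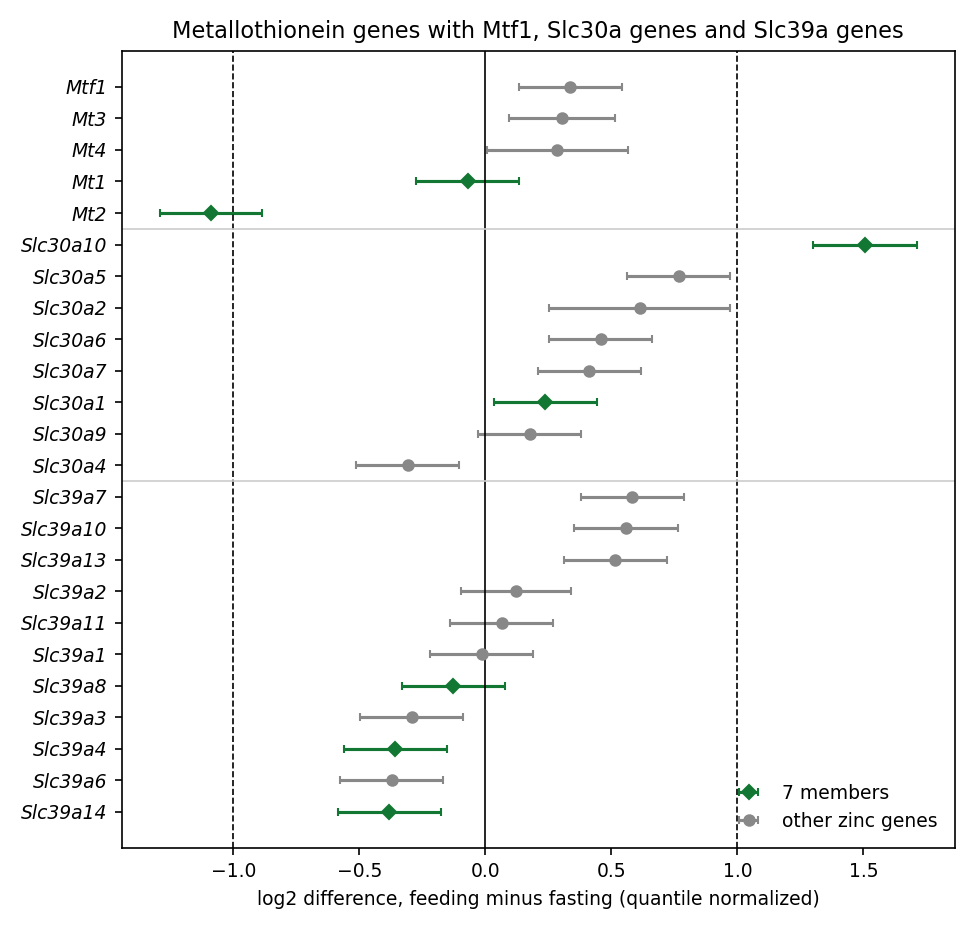
Log2 difference, feeding minus fasting, of the 24 zinc genes measured, by the brightest probe of each; green diamonds are the 7 genes, grey circles the other zinc genes, bars the scanner software's error and dashed lines 2-fold. Only Mt2 and Slc30a10 lie past a dashed line.

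The direction of each difference was compared under 4 ways of normalizing the arrays. Mt2 ran from -1.18 to -0.93 and Slc30a10 from 1.03 to 1.55. Slc30a1 ran from 0.20 to 0.44, Slc39a4 from -0.36 to -0.13 and Slc39a14 from -0.38 to -0.17, each with a single sign. Mt1, from -0.07 to 0.10, and Slc39a8, from -0.21 to 0.06, changed sign. Over all genes, 41.5% of those past 2-fold were higher upon feeding with quantile normalization and 52.5% with scaling by the median.

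**Figure D5:**
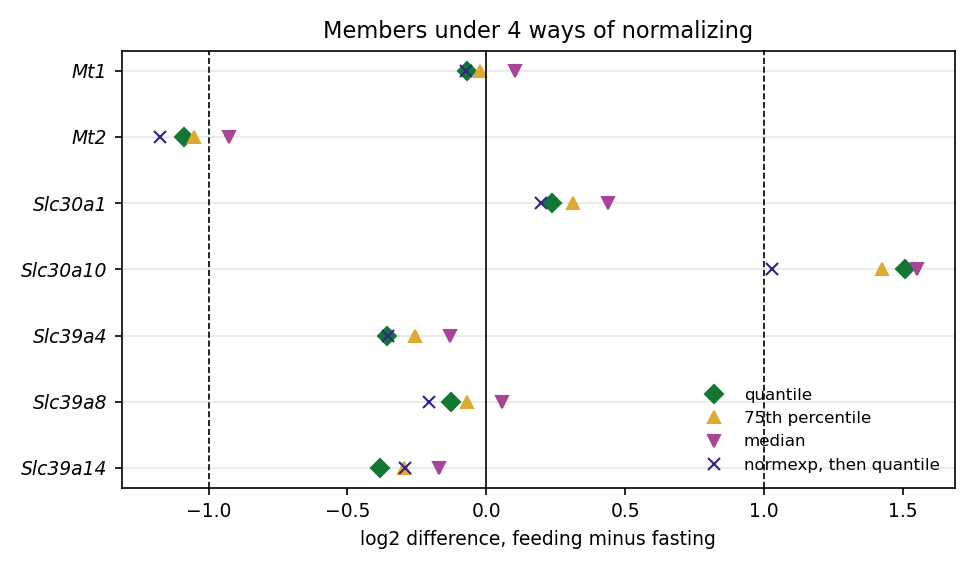
Log2 difference, feeding minus fasting, of the 7 genes under quantile normalization (green), scaling by the 75th percentile (yellow), scaling by the median (purple) and the normexp background correction followed by quantile normalization (blue crosses), with 2-fold as dashed lines. Mt2 falls short of 2-fold with scaling by the median, and Slc30a10 comes closest to the line with normexp.

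With 2 arrays, the only likeness between genes is that of their difference. Among 14515 genes, those nearest to Mt2 were Slc25a51, Rbms1 and Macroh2a1, all at -1.09, and those nearest to Mt1 were AI182371, 2210416O15Rik and Ptgr2, all at -0.07.

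The state of the samples was read from genes known to follow feeding. All 10 genes of a list induced by fasting were at least 2-fold lower upon feeding, where 4.62% of all genes were. Of 10 genes of a list induced by feeding, 9 were at least 2-fold higher, where 3.29% of all genes were. The remaining gene, Scd1, went the other way, at -0.83. Both lists were chosen with earlier results of these data known, so the counts are no independent check. All 6 hepatocyte markers were well above background on both arrays and within 2-fold, with a summed normalized signal of 611885 upon fasting and 555114 upon feeding. Most of this fall came from Tat, at -0.97, which is also on the list of glucocorticoid receptor target genes below. The other hepatocyte markers lay between -0.07 and 0.07. The sum was also lower upon feeding for 6 Kupffer cell markers, at 48534 and 38719, where Adgre1, at -0.89, made most of the fall. It was lower too for 6 markers of endothelial cells, at 40150 and 31389, and for 6 of stellate cells, at 42498 and 32884. The sum was higher upon feeding for 6 bile duct markers, at 2878 and 3523. Sox9 carried that rise, with a processed signal of 398 upon fasting and 1599 upon feeding. Spp1, the brightest of these markers, went from 2344 to 1645, so the markers did not rise as a set. Past 2-fold were Pecam1, an endothelial marker, at -1.04, and Sox9, a bile duct marker, at 2.11. The part of these cells in the differences of the metallothioneins and transporters was not tested, and in whole liver fewer cells of a type and less RNA per cell cannot be told apart. On the fasting array 63.1% of transcript spots were well above background, and on the feeding array 72.3%. The median local background was 30.2 on the fasting array and 22.5 on the feeding array, so dim transcripts were detected less often upon fasting. No spot was saturated in the scan, and both arrays were read in the same scan.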

How the data were processed

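The authors labelled total liver RNA with Cy3 using the Quick Amp kit, used a Whole Mouse Genome array, and read its spots with Agilent Feature Extraction 11.0.1.1. For each spot the deposited files give intensities: the processed signal, from which background had been subtracted, its error from the software's error model, and the raw median signal with its local background. None was normalized between arrays. The deposited value table holds the mean local background of each of 44397 spots, with a relative tolerance of 1e-06, and was not used here.

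Control and outlier spots were left out (123 outliers upon fasting and 98 upon feeding), repeated spots were averaged on the log2 scale, and quantile normalization between the 2 arrays followed the study's methods. Probes were named by RefSeq transcript in the GRCm38.p6 table, which matched 27218 of 39402 probes. The array design names the older build mm9, and coordinates are given only for RefSeq promoter windows. A gene was represented by its brightest probe. Calls followed the study's 2-fold threshold. For probes that only 1 array measured above background, a lower bound was used, taken against the higher of its own signal and the lowest signal well above background. The software's errors of both spots were combined in quadrature, and the SD of replicate spots came from 285 probes spotted 10 times per array, in 3 groups of brightness. These errors cover the array only, and the number of arrays limits the precision.

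The genes and lists were chosen with earlier results of these data known. The genes named were all 7 genes, other zinc genes past 2-fold with Mtf1, Mt3 and Mt4, at most 3 of each further list by size of difference, and the 3 nearest genes to Mt1 and Mt2; the remaining Slc30a and Slc39a genes measured were named after their values were seen. The alternatives tried were scaling to the 75th percentile or median of each array, a normexp correction with offset 50 on the median signal (limma 3.58.1, R 4.3.3), averaging all probes of a gene, other filters, no bound, and thresholds of 1.5-fold and 3-fold. The other steps ran in Python 3.11.15. The procedure was tested on simulated data with the same noise for probes of every brightness and no probe dim on only 1 array. That simulation therefore tested neither the lower bound nor the larger spread of dim probes, and it held no spread between mice.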

Additional observations from a re-analysis of the deposited data

How the results depend on the processing

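The count of 2 of the 7 genes past 2-fold was also found with scaling by the 75th percentile, with the normexp correction and at 1.5-fold. Averaging probes, filters on dim probes and leaving out the bound could not change these genes, which have 1 probe each, well above background on both arrays. It was 1 with scaling by the median, where Mt2 fell short of 2-fold, and 0 at 3-fold. The count of 0 other zinc genes past 2-fold became 2 without a filter on dim probes, Slc39a9 and Slc39a12, whose probes were not well above background on either array. It also became 2 at 1.5-fold, Slc30a2 and Slc30a5. Over all genes, 1293 were past 2-fold, 527 under normexp, 2366 without a filter, 3451 at 1.5-fold and 469 at 3-fold. Of 21 log2 differences of the 7 genes under the 2 scalings and the normexp correction, 13 moved by less than the SD between replicate spots, 8 moved by more, and 0 that had been past 2-fold changed sign. Dim probes limit the reading of Mt3, Mt4 and the 5 genes not well above background, and pooling leaves 1 value per group for every gene. Cause was not tested for any of these changes beyond the construction of the filters and thresholds.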

Other observations

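Glucocorticoids and inflammation are known to raise metallothionein transcripts, and lists of genes that respond to each were read beside Mt1 and Mt2. Of 14 glucocorticoid receptor target genes, a list that holds Mt1 and Mt2, 11 were at least 2-fold lower upon feeding and 0 higher, where 4.62% of all genes were lower and 3.29% higher. Without Mt1 and Mt2 it was 10 of 12, with a median log2 difference of -1.72. Some of these calls lay as close to 2-fold as that of Mt2, and the list was not counted again under the other scalings. Like the other lists, it was chosen with earlier results of these data known. The largest differences were those of Ddit4 (-3.73), an inhibitor of mTORC1 signaling, Zbtb16 (-3.43), a zinc finger transcription factor, and Klf9 (-3.27), a Kruppel-like factor. The log2 difference of Mt2, -1.09, was smaller in size than the list's median, and that of Mt1 was -0.07. Of 12 acute phase genes, 0 were past 2-fold on these 2 unreplicated arrays, where 7.91% of all genes were, so that a count of 0 in so short a list is near the background. The largest were Saa2 (0.96) and Saa1 (0.89), serum amyloid A proteins, and Socs3 (-0.94), an inhibitor of cytokine signaling. Slc39a14, which is known to respond to inflammation, was at -0.38. Whether glucocorticoids or inflammation had a part in any of these differences was not tested. With 1 array per group, their part cannot be told apart from other effects of fasting and feeding.

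Genes for the handling of copper and manganese, metals that metallothioneins or the transporters also bind or carry, were read in the same way. Of 13 such genes, 0 were past 2-fold, which in so short a list is also near the background, with a median log2 difference of 0.01. The largest were Slc11a2 (0.57), an importer of iron and manganese, Slc31a2 (-0.37), a copper transporter, and Slc40a1 (0.32), the exporter ferroportin. Slc30a10, at 1.51, lay above every gene of this list.

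Among markers of cells other than hepatocytes, Sox9, a transcription factor of bile duct cells, was higher by 2.11 on the log2 scale, and 4 other bile duct markers were within 2-fold. Krt7, the remaining one, was well above background upon feeding but not upon fasting, so its difference has only a lower bound, 0.19. Of 7 pancreatic acinar markers measured, Cela2a was lower by 2.70 and Prss2 higher by at least 1.37, both on dim probes. All 5 red blood cell markers measured were within 2-fold.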
